A study of Mus musculus with 12 samples.

Results

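The collagen genes of the mouse, taken as the rows of a count table whose symbol is Col, a number, a and a number, were followed across 4 adipose depots. The table holds 23420 genes, and 44 of them met this rule: 11 fibrillar chains, 8 basement membrane chains and 25 chains of other types. The study sequenced RNA from a pair of brown depots, the interscapular (iBAT) and the supraclavicular (scBAT), and a pair of white depots, the inguinal (iWAT) and the epididymal (eWAT), with 3 libraries per depot. All 12 libraries came from male C57BL/6 mice, 8 weeks old, that received no treatment and were kept at ambient temperature. Site is the only difference between depots that the labels give, and there is no manipulated group. Nothing in the labels says whether the 3 libraries of a depot came from separate animals or pools, nor whether depots share animals, so the p-values measure the spread between these samples.

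Collagens are proteins of the extracellular matrix in which chains wind around each other into a helix. Fibrillar collagens such as types I, III and V assemble into the tension-bearing fibrils of connective tissue, whereas type IV forms the sheet-like network of basement membranes, on which endothelial cells rest and which also surrounds each adipocyte. Type VI collagen forms beaded filaments around cells and is a prominent collagen of adipose tissue. In fat, much of the fibrillar collagen is made by fibroblasts and adipocyte progenitors, while adipocytes and endothelial cells contribute basement membrane chains. RNA was taken from whole tissue, where fewer cells of a type and less RNA per cell cannot be told apart.

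Total counts ran from 17159401 to 29262554 per library. Levels below are CPM, read counts scaled by library size and TMM factors, and they are not divided by length unless the sentence says so. Ucp1, the uncoupling protein that defines brown adipocytes, was at 1559 to 2399 CPM in the 6 brown libraries and at 15.7 to 87.7 CPM in the 6 white ones. Marker lists of other tissues set some libraries apart. Summed over 12 genes, lymphocyte markers reached 1905 and 2760.0 CPM in iWAT libraries 1 and 3, against 118 CPM in iWAT library 2 and at most 51.3 CPM elsewhere. Mesothelial markers summed to 472 to 638 CPM in eWAT and to at most 45.7 CPM elsewhere, with Upk3b, Upk1b and Wt1 at 0 in all 6 brown libraries. Salivary gland markers summed to 6724, 11260.0 and 2426 CPM in scBAT libraries 1 to 3. Collagen gene results that rest on the white depots are given below with iWAT libraries 1 and 3 left out as well, where that changes them. For the other gene lists no such values are given.

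Collagen took a larger part of the RNA of white fat than of brown fat. Of all counts, collagen genes took 0.235, 0.228 and 0.258% in libraries 1 to 3 of iBAT and 0.268, 0.298 and 0.281% in those of scBAT. The same genes took 0.738, 1.35 and 0.394% in iWAT and 1.1, 1.14 and 1.14% in eWAT. Every white library was above every brown one, and the iWAT libraries spread widely, with library 2 above all eWAT libraries and library 3 nearest to brown fat. The make-up of this RNA also differed by depot. Basement membrane chains made up 42.8 to 51.1% of the collagen counts in iBAT, 38.8 to 43.6% of those in scBAT, 26.8 to 28.3% of those in iWAT and 36.9 to 38.4% of those in eWAT. Fibrillar chains made up 35.4 to 43.5% in iBAT, 42.5 to 47.4% in scBAT, 55.9 to 59.7% in iWAT and 44.8 to 46.65% in eWAT. The eWAT range of this share lay inside that of scBAT. The 3 iWAT libraries had nearly the same make-up although their totals differed, and they lay apart from eWAT in both shares. No test was run on these shares.

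**Figure D1:**
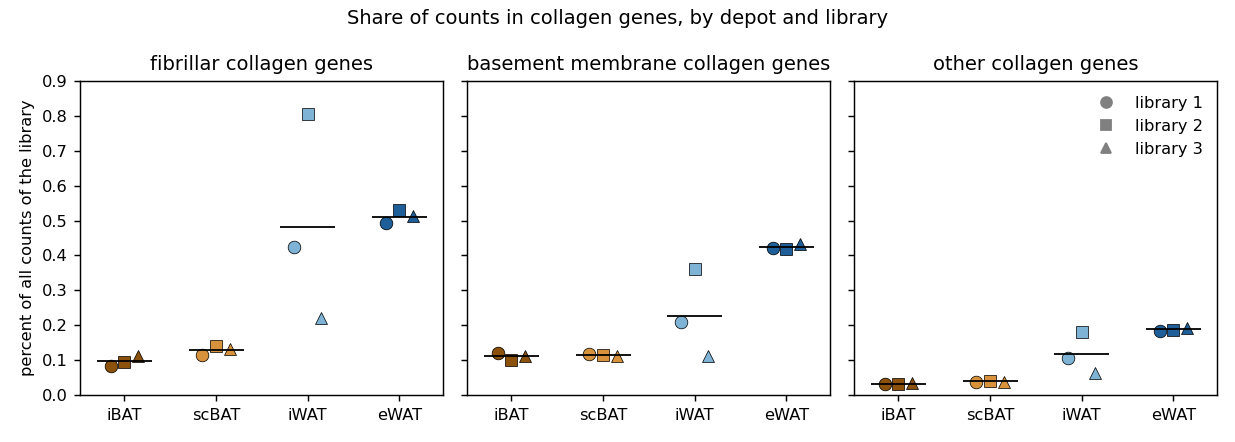
Counts of fibrillar, basement membrane and other collagen genes, in separate panels, as a percent of all counts of each of the 12 libraries grouped by depot. Symbols mark library 1, 2 or 3, lines mark depot means and the axis is linear. The fibrillar share is 0.0833 to 0.141% in the brown libraries and 0.22 to 0.805% in the white ones. The basement membrane share is 0.101 to 0.12% in brown and 0.11 to 0.434% in white libraries, with iWAT library 3 inside the brown range.

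Of the 44 genes, 36 had enough counts to be tested. A gene is called lower or higher below where edgeR's quasi-likelihood test gave an adjusted p under 0.05, and differences between brown and white fat are brown minus white, each colour being the average of its depots. In brown fat 25 of the 36 were lower (69.4%, where 38.1% of all 14898 tested genes were lower) and 6 were higher (16.7%, where 31.3% of all tested genes were higher). The median log2 difference of the 36 was -1.67, against -0.11 for all tested genes. All tested basement membrane chains were lower, 8 of 8, with a median of -1.57. Among fibrillar chains 6 of 10 were lower and 2 higher, with a median of -1.83, and among the other types 11 of 18 were lower and 4 higher, with a median of -1.49. The 6 that were higher in brown fat were Col27a1, Col11a2, Col12a1, Col13a1, Col20a1 and Col7a1.

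**Figure D2:**
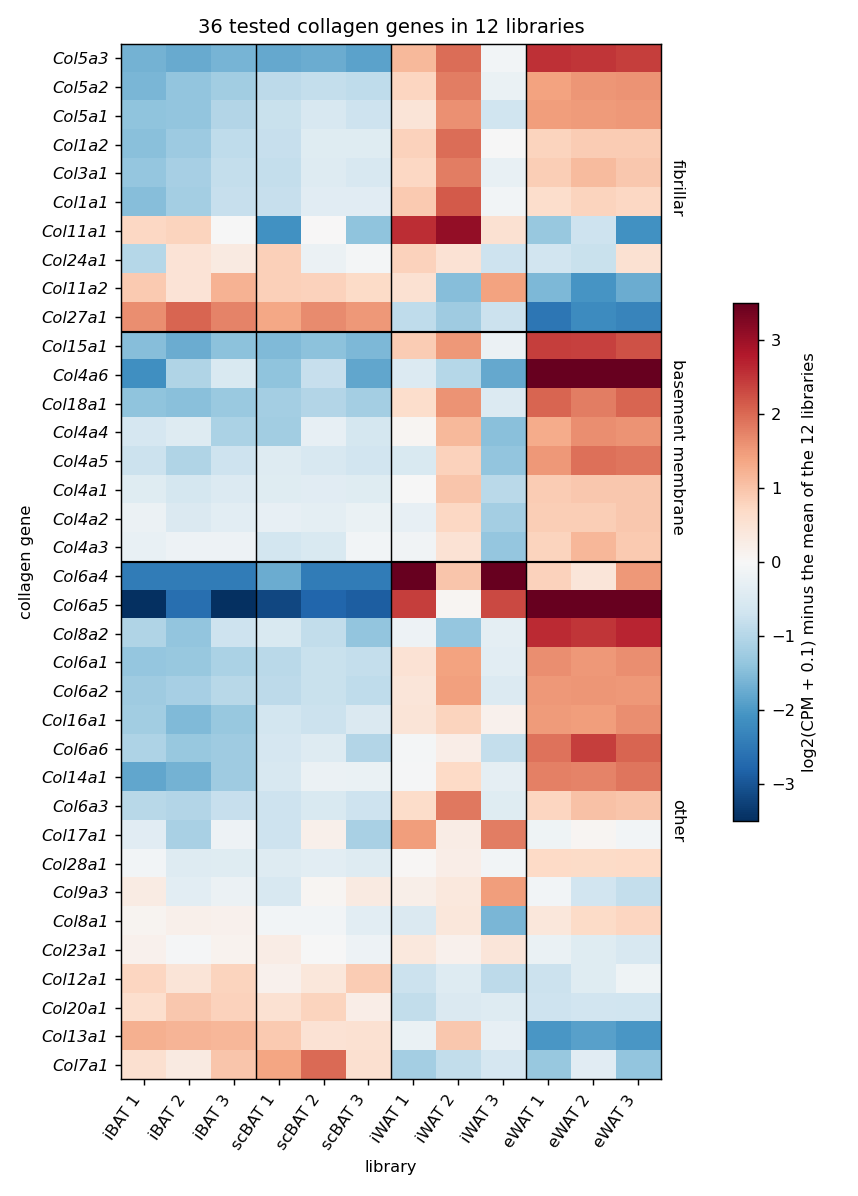
Each tested collagen gene, in rows grouped by class, in each of the 12 libraries, in columns grouped by depot; colour is the log2 CPM minus the mean of that gene over the 12 libraries, on a scale that ends at its printed limits. Most rows are low in the 6 brown columns and high in eWAT and iWAT library 2, and Col27a1, Col12a1, Col20a1 and Col7a1 run the other way.

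The promoters of 5 of these genes are shown because the genes represent the range of behaviour in the results: Col3a1, Col5a3, Col15a1 and Col6a3 were lower in brown fat, from the fibrillar, basement membrane and type VI groups, and Col27a1 was higher. Each is the last 150 bases before the RefSeq gene start on GRCm38.p6, 5′ to 3′ on the gene's strand, from RefSeq. No base lies inside an annotated exon of the same gene, and exons of other genes were not checked. The Col27a1 window lies inside the wider GENCODE span of that gene, which starts upstream at chr4:63214004. Capitals mark 3 motifs, searched on both strands, which do not overlap each other in these windows. The TATA box was searched as TATAAA. The CCAAT box was searched by the letters of its name. The GC box was searched as GGGCGG, which on the reverse strand reads CCGCCC.
Col3a1, chr1:45311388-45311537, plus strand: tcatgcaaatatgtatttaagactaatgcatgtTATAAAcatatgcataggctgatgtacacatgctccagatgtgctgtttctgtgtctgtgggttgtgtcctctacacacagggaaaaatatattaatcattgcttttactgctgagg
Col5a3, chr9:20815068-20815217, minus strand: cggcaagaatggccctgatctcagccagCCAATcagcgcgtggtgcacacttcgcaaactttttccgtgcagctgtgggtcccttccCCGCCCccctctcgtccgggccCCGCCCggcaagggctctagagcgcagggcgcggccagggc
Col15a1, chr4:47207862-47208011, plus strand: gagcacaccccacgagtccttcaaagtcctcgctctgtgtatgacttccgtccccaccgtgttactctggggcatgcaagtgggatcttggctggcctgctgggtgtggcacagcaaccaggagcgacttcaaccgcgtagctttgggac
Col6a3, chr1:90843972-90844121, minus strand: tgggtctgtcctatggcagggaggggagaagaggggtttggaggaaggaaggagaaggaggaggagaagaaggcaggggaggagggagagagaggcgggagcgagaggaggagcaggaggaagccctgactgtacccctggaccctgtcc
Col27a1, chr4:63215262-63215411, plus strand: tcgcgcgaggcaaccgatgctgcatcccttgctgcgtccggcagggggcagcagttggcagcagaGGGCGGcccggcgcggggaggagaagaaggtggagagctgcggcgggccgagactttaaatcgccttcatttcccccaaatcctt
Col3a1 holds a single TATA box in this window, Col5a3 a CCAAT box and a pair of reverse-strand GC boxes, Col27a1 a GC box, and Col15a1 and Col6a3 none of the 3 motifs. In the 250 bases before the start, 22 of 38 windows of collagen genes (57.9%) held a GC box, where 32.7% of all 32851 promoters in the RefSeq table did. A CCAAT box was found in 13 of the 38 windows, against 33.8% of all promoters, and a TATA box in 5, against 12.4%. The 38 windows belong to 35 collagen genes. A match describes the letters of the window and does not show that a factor binds there.

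The chains of types I and III, the main fibril formers, were lower in brown fat by 3.53-fold to 3.62-fold. Col1a1, the α1 chain of type I collagen (chr11:94936224-94953042, plus strand, GRCm38), was at 91.1, 112 and 146 CPM in iBAT, 146, 193 and 194 CPM in scBAT, 484, 1130.5 and 240.1 CPM in iWAT and 388, 437 and 425 CPM in eWAT. Each brown library lay below each white one, scBAT began where iBAT ended, and iWAT library 2 stood more than 2 times above every other library. The difference between brown and white was -1.82 on the log2 scale (SE 0.31, adjusted p = 0.000407), and the level was 3.53-fold lower. Col1a2, the α2 chain of the same heterotrimer (chr6:4504814-4541544), had 155, 178 and 228 CPM in iBAT, 242, 317 and 319.8 CPM in scBAT, 745, 1642 and 418 CPM in iWAT and 727, 791 and 784 CPM in eWAT, and its difference was -1.85 on the log2 scale (SE 0.28, adjusted p = 0.000176). Col3a1, whose homotrimer is mixed into type I fibrils in soft tissues (chr1:45311538-45349706), was at 387, 445 and 557 CPM in iBAT, 562, 728 and 679.8 CPM in scBAT, 1651, 3478 and 826 CPM in iWAT and 1821, 2160.0 and 1918 CPM in eWAT. Its brown libraries were again all below its white ones, with iWAT library 2 highest, and the difference was -1.84 on the log2 scale (SE 0.29, adjusted p = 0.000238).

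Type V collagen, which nucleates type I fibrils and limits their width, fell as well in brown fat, and its α3 chain had the largest fitted difference of the fibrillar chains. Col5a1 (chr2:27886425-28039514) was at 41.4, 42.0 and 54.1 CPM in iBAT, 64.5, 74.7 and 67.1 CPM in scBAT, 151, 336 and 68.4 CPM in iWAT and 307, 309.9 and 318 CPM in eWAT. The brown and white ranges of Col5a1 overlapped through iWAT library 3, and the difference was -2.10 on the log2 scale (SE 0.30, adjusted p = 0.000126). Col5a2, which lies next to Col3a1 on the opposite strand (chr1:45374321-45503282), was at 41.5, 48.5 and 53.9 CPM in iBAT, 65.9, 70.9 and 67.1 CPM in scBAT, 211, 433 and 107 CPM in iWAT and 332, 366 and 373 CPM in eWAT, with a difference of -2.39 on the log2 scale (SE 0.28, adjusted p = 2.29e-05). Col5a3 (chr9:20770050-20815067, minus strand) was at 51.7, 47.9 and 53.2 CPM in iBAT, 46.7, 49.3 and 44.7 CPM in scBAT, 357, 634 and 152 CPM in iWAT and 957, 924 and 866 CPM in eWAT. Its 6 brown libraries spanned 44.7 to 53.2 CPM, a narrow band far below the lowest white library. The difference was -3.60 on the log2 scale (SE 0.29, adjusted p = 1.6e-06), and the level was 12.1-fold lower. Col5a1, by contrast, was 4.27-fold lower.

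Col27a1, a fibrillar chain best known from cartilage, went the opposite way. It lies at chr4:63214004-63334991 on the plus strand and was at 127, 170.1 and 139 CPM in iBAT, 106, 129 and 119 CPM in scBAT, 22.3, 17.3 and 24.3 CPM in iWAT and 7.03, 8.96 and 8.31 CPM in eWAT. The lowest brown library was more than 4 times above the highest white one. The difference was 3.32 on the log2 scale (SE 0.12, adjusted p = 2.33e-08), a level 9.97-fold higher in brown fat. Cartilage and tendon markers summed to 2.22 to 8.07 CPM in the brown libraries and 2.77 to 8.18 CPM in the white ones, with 0 of 3 tested members higher in brown fat and 1 lower. Col11a2, another chain of cartilage-type fibrils (chr17:34039437-34066685), was at 7.88, 5.80 and 9.69 CPM in iBAT, 7.45, 7.34 and 6.66 CPM in scBAT, 5.98, 1.41 and 11.2 CPM in iWAT and 1.31, 0.912 and 1.16 CPM in eWAT. Its brown libraries were even, and its white libraries split, with iWAT 1 in the brown range, iWAT 3 above it and iWAT 2 beside eWAT. Its difference was 1.49 on the log2 scale (SE 0.39, adjusted p = 0.00559), and with iWAT libraries 1 and 3 left out the log2 difference became 2.57. Those libraries are the ones with high lymphocyte marker sums, whose part in the Col11a2 level was not tested. Col11a1 was at most 3.57 CPM in any library and Col24a1 at most 0.683 CPM, and neither passed the threshold, with log2 differences of -0.57 (SE 0.84) and 0.10 (SE 0.49).

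**Figure D3:**
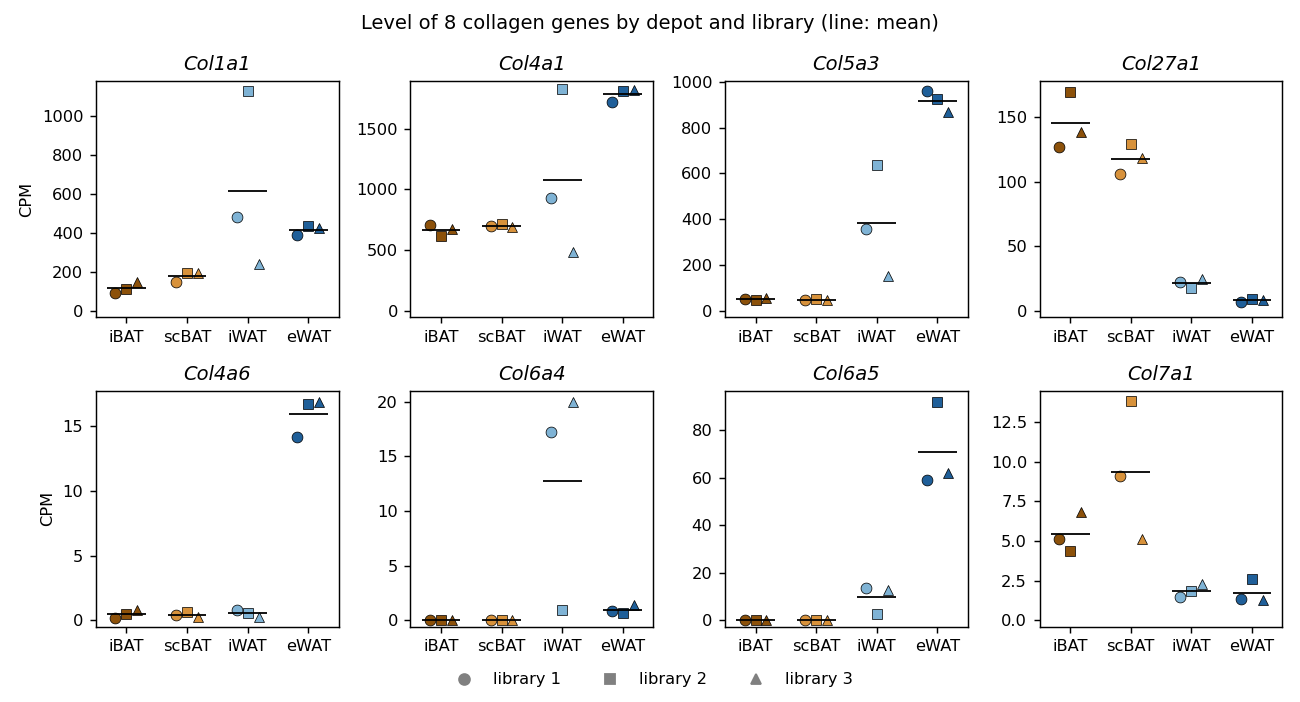
CPM in each of the 12 libraries, by depot, for 8 collagen genes with different patterns (Col1a1, Col4a1, Col5a3, Col27a1, Col4a6, Col6a4, Col6a5 and Col7a1), each panel with its own axis. Points are libraries. Col27a1 spans 106 to 170.1 CPM in brown and 7.03 to 24.3 CPM in white fat, Col4a6 reaches 14.2 to 16.9 CPM in eWAT only, and Col6a4 is high in iWAT libraries 1 and 3.

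In the basement membrane group, the main network chains had smaller fitted differences than Col15a1 and Col18a1. Col4a1 (chr8:11198423-11312826, minus strand) and Col4a2 (chr8:11312805-11449287, plus strand) form the common type IV network and start back to back. Their first exons share the 22 bases at chr8:11312805-11312826, shown because the pair is read from this point in both directions, on the plus strand as
Col4a1 and Col4a2 shared start: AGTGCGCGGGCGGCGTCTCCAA
Col4a1 was at 704, 614 and 669 CPM in iBAT, 695, 711 and 693 CPM in scBAT, 927, 1826 and 487 CPM in iWAT and 1720.2, 1813 and 1818 CPM in eWAT. Brown libraries were even, and white libraries ran from below the brown range, in iWAT library 3, to more than 2 times above it. The difference was -1.03 on the log2 scale (SE 0.25, adjusted p = 0.00412), a level 2.04-fold lower in brown fat. Col4a2 was at 514, 419 and 461 CPM in iBAT, 489, 474 and 512 CPM in scBAT, 494, 985 and 264 CPM in iWAT and 1093, 1087 and 1149.7 CPM in eWAT, with a difference of -0.75 on the log2 scale (SE 0.25, adjusted p = 0.0212), and the adjusted p was 0.0541 with iBAT library 2 left out. For both chains the brown and iWAT ranges overlapped. The eWAT libraries lay above all brown ones, and above all iWAT libraries for Col4a2, whereas for Col4a1 iWAT library 2 was above eWAT.

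Col15a1 and Col18a1, whose products sit at the outer face of basement membranes and carry the fragments known as restin and endostatin, showed a wider gap. Col15a1 (chr4:47208161-47313167) was at 48.2, 41.2 and 49.9 CPM in iBAT, 46.3, 50.5 and 45.7 CPM in scBAT, 250.3, 391 and 118 CPM in iWAT and 723, 721 and 644 CPM in eWAT. The brown libraries spanned 41.2 to 50.5 CPM and every white library lay above 117 CPM. The difference was -3.16 on the log2 scale (SE 0.24, adjusted p = 1.25e-06), a level 8.94-fold lower in brown fat. Col18a1 (chr10:77052178-77166548) was at 25.2, 24.5 and 27.4 CPM in iBAT, 29.4, 33.3 and 29.6 CPM in scBAT, 102, 199.7 and 48.2 CPM in iWAT and 276, 232 and 278 CPM in eWAT, with a difference of -2.64 on the log2 scale (SE 0.28, adjusted p = 1.19e-05), a level 6.22-fold lower in brown fat. Both genes were lower in each brown library than in each white library.

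The minor type IV chains lie in head-to-head pairs, Col4a3 with Col4a4 on chromosome 1 and Col4a5 with Col4a6 on the X chromosome. Col4a4 was at 2.08, 2.29 and 1.42 CPM in iBAT, 1.30, 2.58 and 2.03 CPM in scBAT, 3.34, 7.13 and 1.09 CPM in iWAT and 7.95, 9.95 and 9.66 CPM in eWAT, and its difference was -1.60 on the log2 scale (SE 0.38, adjusted p = 0.00344). Col4a5 was at 9.35, 7.52 and 9.56 CPM in iBAT, 11.5, 10.8 and 9.96 CPM in scBAT, 11.0, 27.7 and 6.06 CPM in iWAT and 45.3, 60.0 and 58.0 CPM in eWAT, with a difference of -1.55 on the log2 scale (SE 0.30, adjusted p = 0.000938). Col4a6 (chrX:141165403-141474076) was at 0.183, 0.510 and 0.775 CPM in iBAT, 0.373, 0.616 and 0.254 CPM in scBAT, 0.809, 0.528 and 0.263 CPM in iWAT and 14.2, 16.7 and 16.9 CPM in eWAT. It was at or under 0.809 CPM in 9 libraries and above 14 CPM in the 3 eWAT libraries, so its call as lower in brown fat (log2 difference -2.68, SE 0.36, adjusted p = 6.61e-05) comes from eWAT. The eWAT libraries are also the only ones with high mesothelial marker sums, and the part of that tissue in the Col4a6 level was not tested. Col4a3 was at 1.25 to 7.57 CPM and passed with a difference of -0.73 on the log2 scale (SE 0.28, adjusted p = 0.0358), but it lost the call in 12 of the 19 alternative settings, and 5.65% of its exon length overlaps an antisense transcript whose reads cannot be told apart without strand.

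Type VI collagen divided into the common chains and a set of tandem chains. Col6a1 (chr10:76708792-76726168) was at 79.0, 80.7 and 93.6 CPM in iBAT, 105, 116 and 112 CPM in scBAT, 284, 532 and 156 CPM in iWAT and 624, 579 and 623 CPM in eWAT, with a difference of -2.20 on the log2 scale (SE 0.24, adjusted p = 1.62e-05). Col6a2, its neighbour (chr10:76595762-76623630), was at 76.9, 80.0 and 92.9 CPM in iBAT, 95.5, 104 and 98.4 CPM in scBAT, 244, 484 and 129.9 CPM in iWAT and 515, 525 and 516 CPM in eWAT, with a difference of -2.08 on the log2 scale (SE 0.26, adjusted p = 3.69e-05). Col6a3, the long chain that releases the adipokine endotrophin (chr1:90765923-90843971), was at 79.9, 77.2 and 89.8 CPM in iBAT, 95.3, 109.6 and 94.5 CPM in scBAT, 246, 563 and 117 CPM in iWAT and 268, 320.2 and 309 CPM in eWAT, with a difference of -1.75 on the log2 scale (SE 0.30, adjusted p = 0.000395). In all 3 common chains each brown library was below each white one. Col6a3 in eWAT stayed well under iWAT library 2, whereas Col6a1 and Col6a2 in eWAT were above it.

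Col6a4, Col6a5 and Col6a6 stand side by side on the minus strand of chromosome 9 (chr9:105687809-106096783) and encode alternatives to the α3 chain. Being related in sequence, they could exchange reads, and how the authors counted such reads is not given in the sources used here. Col6a5 was at 0.122, 0.319 and 0.0646 CPM in iBAT, 0.186, 0.280 and 0.254 CPM in scBAT, 13.8, 2.64 and 12.7 CPM in iWAT and 59.0, 92.1 and 62.1 CPM in eWAT. It was under 0.32 CPM in every brown library and highest in eWAT, with a difference of -6.99 on the log2 scale (SE 0.51, adjusted p = 7.86e-07). Col6a4 had counts of 0, 0 and 0 in iBAT and 1, 0 and 0 in scBAT, against 491, 22 and 608 in iWAT and 24, 16 and 46 in eWAT. In CPM these white values are 17.3, 0.968 and 20.0 in iWAT and 0.852, 0.635 and 1.44 in eWAT, so the 2 highest libraries are those with lymphocyte markers. It passed as lower in brown fat (adjusted p = 0.000354), and no fold is given against counts this low. Col6a6 was at 2.93, 2.48 and 2.65 CPM in iBAT, 4.22, 4.65 and 3.04 CPM in scBAT, 6.05, 7.44 and 3.56 CPM in iWAT and 24.1, 34.7 and 26.4 CPM in eWAT, highest in eWAT, with a difference of -1.95 on the log2 scale (SE 0.20, adjusted p = 8.47e-06).

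The fibril-associated chains, which decorate fibrils and do not form them, did not move as a block. Col14a1, associated with fibrils in skin and tendon, averaged 11.5 ± 2.37 CPM (SD, n = 3) in iBAT, 27.1 ± 3.76 CPM in scBAT, 38.0 ± 14.4 CPM in iWAT and 117 ± 5.57 CPM in eWAT and was lower in brown fat (log2 difference -1.92, SE 0.17, adjusted p = 3.98e-06). Col16a1 was also lower, at 3.95 to 8.25 CPM in brown and 13.0 to 36.7 CPM in white libraries (log2 difference -2.02, SE 0.12, adjusted p = 2.41e-07). Col12a1 and Col20a1 were higher in brown fat. Col12a1 was at 39.0, 31.6 and 39.8 CPM in iBAT, 25.7, 30.4 and 42.8 CPM in scBAT, 13.6, 16.7 and 12.2 CPM in iWAT and 13.6, 17.2 and 20.9 CPM in eWAT, with a difference of 1.15 on the log2 scale (SE 0.16, adjusted p = 7.2e-05). Col20a1 was at 8.12 to 13.4 CPM in brown and 3.73 to 5.04 CPM in white libraries, with a difference of 1.33 on the log2 scale (SE 0.14, adjusted p = 8.57e-06). Neither gene's brown and white libraries overlapped.

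Among the remaining types, Col7a1, the anchoring fibril chain of stratified epithelia, was higher in brown fat. It was at 5.13, 4.33 and 6.85 CPM in iBAT, 9.07, 13.8 and 5.14 CPM in scBAT, 1.44, 1.85 and 2.27 CPM in iWAT and 1.31, 2.58 and 1.25 CPM in eWAT, with a difference of 1.999 on the log2 scale (SE 0.29, adjusted p = 0.000119). Within scBAT its order over libraries was that of the salivary marker sum, with library 2 highest and library 3 lowest in both, and the part of salivary tissue in its level was not tested. The white library with the highest salivary sum, eWAT 2 at 2424 CPM, also had the highest Col7a1 value of the white libraries, 2.58 CPM. In iBAT the salivary sums were 529 to 1073 CPM and Col7a1 was at 4.33 to 6.85 CPM. Surface epithelium markers summed to 4.09 to 35.2 CPM in brown libraries and 16.1 to 108 CPM in white ones. Of the transmembrane collagens, Col13a1 was higher in brown fat (log2 difference 1.99, SE 0.26, adjusted p = 4.68e-05). It averaged 3.51 CPM in iBAT, 2.38 CPM in scBAT, 1.77 CPM in iWAT and 0.294 CPM in eWAT. In scBAT against iWAT edgeR did not call it (log2 difference 0.43, adjusted p = 0.285). Col17a1 was lower at no more than 2.57 CPM anywhere (log2 difference -1.24, SE 0.36, adjusted p = 0.0107). With iWAT libraries 1 and 3 left out its log2 difference was -0.66. Col23a1 had a log2 difference of 0.09 (SE 0.11). Col28a1 was lower by 0.75 on the log2 scale (adjusted p = 0.000108). Of the short network-forming chains, Col8a2 was lower (log2 difference -2.32, SE 0.32, adjusted p = 8.44e-05) at no more than 3.61 CPM. It averaged 0.190 CPM in iBAT, 0.221 CPM in scBAT, 0.305 CPM in iWAT and 3.46 CPM in eWAT, so this call comes from eWAT. Against iWAT edgeR called it in neither iBAT (adjusted p = 0.225) nor scBAT (adjusted p = 0.386). Col8a1, at 4.12 to 21.6 CPM, had a log2 difference of -0.15 (SE 0.26), which with iWAT libraries 1 and 3 left out was -0.52. Col9a3 was at no more than 2.07 CPM and had a log2 difference of -0.20 (SE 0.33).

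**Figure D4:**
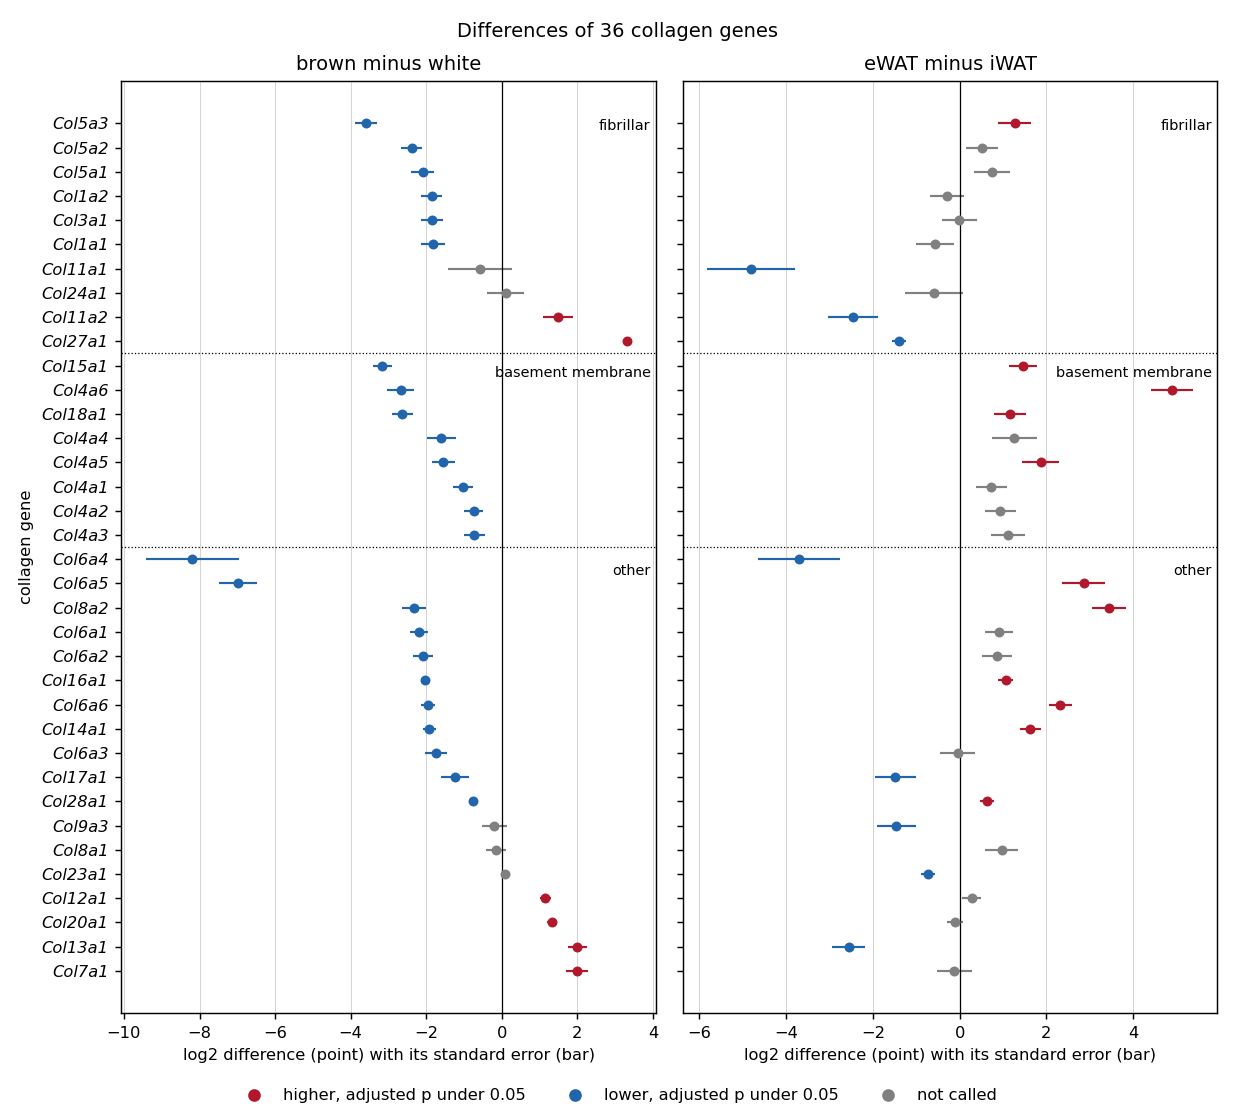
Fitted log2 difference and its standard error for each tested collagen gene, in a panel for brown minus white and a panel for eWAT minus iWAT. Points are estimates, bars are 1 SE, colour marks genes past an adjusted p of 0.05, and the panels have their own horizontal ranges. The brown minus white panel lies mostly to the left of 0, and the eWAT minus iWAT panel has genes past the threshold on both sides.

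A stricter count asked whether a gene differed in every pairing of a brown with a white depot. In all of iBAT and scBAT against iWAT and eWAT, 15 of the 36 tested collagen genes were lower in brown fat (41.7%, where 16.5% of all tested genes were), and 4 were higher (11.1%, where 19.5% of all tested genes were). The 15 were Col1a1, Col1a2, Col3a1, Col5a1, Col5a2, Col5a3, Col15a1, Col18a1, Col6a1 to Col6a5, Col16a1 and Col28a1, so the fibrillar class held 6 of its 10 tested genes and the basement membrane class 2 of 8. The 4 were Col27a1, Col12a1, Col20a1 and Col7a1. Col4a1, Col4a2 and the other type IV chains passed against eWAT and missed the threshold against iWAT. Against iWAT 2 of 8 basement membrane genes were lower in iBAT (35.2% of all tested genes were) and 2 of 8 in scBAT (33.5%), and against eWAT 8 of 8 were lower in iBAT (27.5%) and 8 of 8 in scBAT (25.8%). The pairings share libraries, and the difference between the white depots is tested further on. Leaving out iWAT libraries 1 and 3 makes both iWAT pairings rest on library 2 alone, the library with the highest collagen share of all. With iWAT libraries 1 and 3 left out, 22 genes were lower in all pairings, 7 of 8 basement membrane genes among them. Col4a1, Col4a2, Col4a3, Col4a4, Col4a5, Col14a1 and Col6a6 were then added to the lower genes, and among the 4 higher ones Col11a2 took the place of Col7a1. Counting libraries alone, 13 genes had all 6 brown below all 6 white libraries (21.9% of all tested genes) and 4 had them all above (23.3%).

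Cell type markers were counted in the same comparison, where 38.1% of all tested genes were lower in brown fat and 31.3% higher. Fibroblast and progenitor markers, 10 of 12 of which were lower in brown fat, summed to 1328 to 1618 CPM in iBAT, 1908 to 2125 CPM in scBAT, 3004 to 6922 CPM in iWAT and 6219 to 6955 CPM in eWAT. Endothelial markers had 3 higher and 3 lower of 10, with sums of 1227 to 1659 CPM in brown and 921 to 1447 CPM in white libraries. Mural cell markers had 3 higher and 2 lower of 10, and adipocyte markers 3 higher and 3 lower of 10. All 10 macrophage markers and all 12 lymphocyte markers were lower, as were 7 of 9 tested mesothelial markers and 2 of 6 surface epithelium markers. All 6 tested salivary markers and all 12 skeletal muscle markers were higher, the latter at sums of 360.0 to 5289 CPM in brown libraries and 55.1 to 202 CPM in white ones. Schwann cell markers had 4 higher and 3 lower of 10. The part of any of these in the collagen levels was not tested.

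No collagen gene passed the threshold between the brown depots. In scBAT against iBAT edgeR called 0 of 36 genes in either direction (0.235% of all tested genes were higher and 0.094% lower), and 2 had an unadjusted p under 0.05. These were Col14a1, at 9.59, 10.7 and 14.1 CPM in iBAT and 22.7, 29.5 and 28.9 CPM in scBAT (log2 difference 1.24, SE 0.25, adjusted p = 0.0917), and Col16a1 (log2 difference 0.74, SE 0.17, adjusted p = 0.195), and in both each scBAT library was above each iBAT library. DESeq2 called both as higher in scBAT, limma-voom called 0 and a fit on these 6 libraries called Col14a1. The many fibrillar values that lay a little higher in scBAT, such as Col1a1 (log2 difference 0.61, SE 0.43) and Col3a1 (0.50, SE 0.40), did not pass. All 12 libraries share an estimate of spread in this test. With iWAT libraries 1 and 3 left out, 5 genes were higher in scBAT, namely Col14a1, Col16a1, Col5a1, Col5a2 and Col6a1; leaving out iWAT library 2 alone gave 2 and library 3 alone gave 1.

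Between the white depots collagen genes were called in both directions. In eWAT against iWAT 11 of 36 genes were higher (30.6%, where 11% of all tested genes were) and 8 were lower (22.2%, where 17.7% of all tested genes were). Of the basement membrane genes 4 of 8 were higher and 0 lower, with a median log2 difference of 1.21, and of the fibrillar genes 1 of 10 was higher and 3 lower, with a median of -0.43; the classes were not tested against each other. Other types had 6 higher and 5 lower of 18. Over all tested genes the median was 0.00.

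Col4a6 had the largest difference of the basement membrane genes (log2 difference 4.89, SE 0.49, adjusted p = 0.000431), and its partner Col4a5 was also higher (log2 difference 1.87, SE 0.42, adjusted p = 0.0136). Col15a1 (log2 difference 1.46, SE 0.32, adjusted p = 0.0126) and Col18a1 (log2 difference 1.17, SE 0.37, adjusted p = 0.0401) were the other basement membrane genes past the threshold. Col4a1 did not pass (log2 difference 0.72, SE 0.36, adjusted p = 0.135), nor did Col4a2 (log2 difference 0.94, SE 0.36, adjusted p = 0.0694). Among the type VI chains, Col6a5 (log2 difference 2.87, SE 0.49, adjusted p = 0.00522) and Col6a6 (log2 difference 2.32, SE 0.27, adjusted p = 0.000881) were higher in eWAT, whereas Col6a4 was lower (log2 difference -3.69, SE 0.94, adjusted p = 0.025). Col8a2 was at 0.132 to 0.422 CPM in iWAT and 3.25 to 3.61 CPM in eWAT (log2 difference 3.45, SE 0.40, adjusted p = 0.000777). Col14a1, at 32.7, 54.3 and 27.0 CPM in iWAT and 114, 114 and 124 CPM in eWAT, was higher as well (log2 difference 1.63, SE 0.24, adjusted p = 0.0032), as were Col16a1 and Col28a1, by 1.06 and 0.63 on the log2 scale.

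The major fibrillar chains gave no call between the white depots. The values were -0.57 on the log2 scale (SE 0.43, adjusted p = 0.31) for Col1a1, -0.29 on the log2 scale (SE 0.39, adjusted p = 0.572) for Col1a2 and -0.01 on the log2 scale (SE 0.40, adjusted p = 0.98) for Col3a1, each with an iWAT range that enclosed the eWAT range. Col5a3 was the single fibrillar gene higher in eWAT (log2 difference 1.26, SE 0.37, adjusted p = 0.0319). Col27a1 was lower there (log2 difference -1.40, SE 0.16, adjusted p = 0.000874), so its order over depots was iBAT and scBAT, which did not differ beyond the threshold, then iWAT, then eWAT. Col11a2 (log2 difference -2.46, SE 0.57, adjusted p = 0.0148) and Col11a1 (log2 difference -4.81, SE 1.02, adjusted p = 0.0106) were the other fibrillar genes that were lower. Col13a1, Col17a1, Col23a1 and Col9a3 were also lower in eWAT, by 2.56, 1.49, 0.73 and 1.46 on the log2 scale.

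Most of these calls changed with the libraries used. Of the 19 genes called, 4 kept the call in each of the 20 alternative settings that were run: Col27a1, Col4a6, Col6a6 and Col8a2. Leaving out iWAT library 2 raised the count of higher genes from 11 to 22 and gave 10 lower, and leaving out iWAT library 1 gave 7 higher and 4 lower. The count of lower genes was 5 without iWAT library 3, 4 without eWAT library 2 and 3 without eWAT library 1 or 3. A fit on the 6 white libraries alone called 3 higher and 1 lower. With iWAT libraries 1 and 3 left out, where the lone iWAT library is assumed to vary like the other groups, 9 genes were higher and 7 lower. Then Col1a1 (log2 difference -1.46, adjusted p = 0.00523), Col1a2 (-1.12, 0.00792), Col3a1 (-0.84, 0.0262) and Col6a3 (-0.94, 0.0015) were lower in eWAT. With iWAT library 2 left out in their place, Col3a1 (0.66, adjusted p = 0.0431) and Col6a3 (0.72, adjusted p = 0.0244) were called higher in eWAT, so the direction of these genes turned with the iWAT libraries kept. With libraries 1 and 3 left out, Col6a4 came to -0.01 (0.999), Col11a2 to -0.34 (0.665), Col17a1 to -0.39 (0.81), Col9a3 to -1.02 (0.385), Col23a1 to -0.56 (0.168), Col18a1 to 0.37 (0.119) and Col28a1 to 0.44 (0.227). Col5a3 came to 0.51 (0.0206), Col15a1 to 0.81 (0.00526), Col4a5 to 0.95 (0.0113) and Col6a5 to 4.72 (9e-05).

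Dividing by the length of the principal transcript allows levels to be set against each other within a depot. In CPM per kb, Col4a1 was the highest collagen in iBAT, at 100.2, followed by Col3a1 at 83.2 and Col4a2 at 72.0. In scBAT Col3a1 was first at 118.0 and Col4a1 next at 105.8. In iWAT Col3a1 led at 356.7, ahead of Col1a2 at 174.9 and Col4a1 at 163.3, and in eWAT Col3a1 at 353.4 led Col4a1 at 269.6 and Col4a2 at 172.1. Col27a1 ranked 8th in both brown depots, 16th in iWAT and 24th in eWAT. Col5a3 ranked 11th in iBAT and 13th in scBAT but 4th in eWAT.

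Ratios of such levels within a library show how steadily paired chains kept their relation. They are descriptions over 3 libraries per depot, with no test. Col1a1 to Col1a2 was 0.481 to 0.621 in all 12 libraries, and Col6a1 to Col6a2 was 0.971 to 1.17. Both pairs encode chains of the same trimer, and their ratios moved little beside the levels, which differed by several times between iWAT libraries. They still differed by depot. Col1a1 to Col1a2 was 0.481 to 0.498 in eWAT and at least 0.517 in every other library. Col6a1 to Col6a2 was 0.971 to 0.989 in iBAT and at least 1.055 in every other library. Other pairs of chains that share a trimer differed by depot as well. Col4a1 to Col4a2 was 1.319 to 1.461 in the brown libraries, 1.535 to 1.625 in eWAT and 1.8 to 1.831 in iWAT. Col5a1 to Col5a2 was 0.505 to 0.611 in iWAT, 0.667 to 0.729 in eWAT and 0.683 to 0.83 in the brown libraries. Col5a3 to Col5a1 moved further, from 0.938 ± 0.0485 in scBAT and 1.54 ± 0.185 in iBAT to 2.97 ± 0.336 in iWAT and 4.04 ± 0.276 in eWAT (SD, n = 3). Col6a3 to Col6a1 was 0.225 ± 0.0283 in eWAT, lower than the 0.445 ± 0.0141 of iBAT, the 0.41 ± 0.0223 of scBAT and the 0.406 ± 0.0713 of iWAT. Col4a1 to Col1a1, basement membrane against fibrillar, was lowest in iWAT at 1.66 ± 0.191, against 5.33 ± 1.45 in iBAT, 3.59 ± 0.588 in scBAT and 3.84 ± 0.128 in eWAT. Col27a1 to Col1a1 was near 1 in iBAT, at 1.01 ± 0.233, and 0.0151 ± 0.000939 in eWAT.

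Genes that build and anchor collagen are given by list, to be read against all tested genes, of which 38.1% were lower and 31.3% higher in brown fat. Of 19 tested genes for folding and modification of the chains, 13 were lower in brown fat and 2 higher. Fkbp10, a chaperone of the endoplasmic reticulum needed for collagen cross-linking, was lower (log2 difference -1.85, adjusted p = 1.41e-06), as were Glt25d1, a collagen galactosyltransferase (log2 difference -0.77, adjusted p = 2.45e-06), and Leprel2, a prolyl 3-hydroxylase (log2 difference -1.12, adjusted p = 2.37e-05). Tmem38b, an ion channel of that compartment needed for normal collagen assembly in bone, was higher (log2 difference 1.92, adjusted p = 1.26e-06), as was Glt25d2, a relative of Glt25d1 (log2 difference 0.76, adjusted p = 0.000841). Of 13 genes for processing and cross-linking, 11 were lower and 0 higher. They include the lysyl oxidase relatives Loxl3 (log2 difference -1.70, adjusted p = 1.97e-07) and Loxl4 (log2 difference -2.30, adjusted p = 2.8e-06), and Adamts14 (log2 difference -2.52, adjusted p = 2.5e-07) and Adamts2 (log2 difference -2.55, adjusted p = 2.38e-05), proteases that remove the amino-terminal propeptide of fibrillar procollagens.

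Proteoglycans and glycoproteins that bind fibrils were lower in brown fat in 14 of 16 cases and higher in 0. Those with the smallest p were Bgn (log2 difference -1.85, adjusted p = 8.17e-08), Fmod (log2 difference -5.12, adjusted p = 3.14e-06), Thbs2 (log2 difference -2.73, adjusted p = 4.02e-06) and Dcn (log2 difference -1.52, adjusted p = 5.86e-06). Biglycan, fibromodulin and decorin are small leucine-rich proteoglycans of the fibril surface, and thrombospondin 2 is a matricellular protein. Basement membrane partners of type IV collagen were lower in 11 of 16 cases and higher in 1. The nidogens, linkers of laminin and type IV collagen, were among the lower ones, namely Nid1 (log2 difference -2.22, adjusted p = 3.58e-05) and Nid2 (log2 difference -2.38, adjusted p = 8.85e-06), as was the laminin chain Lama3 (log2 difference -1.22, adjusted p = 9.04e-05). Agrn, the heparan sulfate proteoglycan agrin, was the one that was higher (log2 difference 0.81, adjusted p = 0.000187).

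Of 9 tested collagen receptors, 7 were lower in brown fat and 1 higher. The receptor tyrosine kinases Ddr1 (log2 difference -1.49, adjusted p = 9.25e-05) and Ddr2 (log2 difference -1.63, adjusted p = 1.06e-05) were lower, together with the integrin chain Itga11 (log2 difference -1.74, adjusted p = 0.000155) and the inhibitory immune receptor Lair1 (log2 difference -2.15, adjusted p = 0.000276). Lair1 was at 18.9, 4.53 and 25.2 CPM in iWAT libraries 1 to 3. It was highest in libraries 1 and 3, those with high lymphocyte marker sums, whose part in its level was not tested. Itga1, a chain of the integrin that prefers type IV collagen, was higher (log2 difference 0.91, adjusted p = 0.000609). In eWAT against iWAT, where 11% of all tested genes were higher and 17.7% lower, the same lists had 7, 4, 4, 4 and 2 genes higher in the order given, and 0, 0, 0, 0 and 2 lower. The medians in brown against white fat were -0.52, -1.57, -1.84, -0.90 and -1.49, against -0.11 for all tested genes.

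The 8 collagen genes with too few counts to test were Col2a1, Col9a1, Col9a2, Col10a1, Col19a1, Col22a1, Col25a1 and Col26a1. None exceeded 27 counts in a library. Col22a1 had 24, 5 and 27 counts in iWAT libraries 1 to 3 and 1 or 2 in each brown library, and Col19a1 had 6 to 13 in the brown libraries and 1 to 10 in the white ones. Col2a1 and Col9a1, markers of cartilage, had at most 4 and 3 counts in any library. When the filter on low counts was dropped, Col19a1 was called higher in brown fat (log2 difference 1.62, adjusted p = 0.0196) and Col22a1 lower (-2.40, adjusted p = 0.000794), and no difference between brown and white fat was detectable at this depth in the other 6. Among tested genes, Col9a3 shares 6.07% of its exon length with Tcfl5 on the opposite strand, and, Col4a3 apart, the remaining overlaps with other genes cover 1.9% or less.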

How the data were processed

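RNA was extracted from whole adipose tissue and made into TruSeq RNA libraries, per the labels' protocols. The authors deposited a table of raw counts, whole numbers of reads per gene symbol and library with no normalization. The submitters' processing notes name build mm10, the aligner STAR 2.4.2a, the counter HTSeq 0.6.1p1, and also edgeR, Picard 1.119 and bcl2fastq 1.8.3; the annotation, the strand setting and the handling of reads shared by related genes are not given in the sources used here.

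From these counts, 14898 genes kept by filterByExpr (holding no less than 99.7% of any library's counts) were fitted in R 4.3.3 with edgeR 4.0.16, using TMM scaling, robust quasi-likelihood and a mean per depot over all 12 libraries, with 8 residual degrees of freedom. P-values were adjusted by the Benjamini-Hochberg method over all tested genes, with a threshold of 0.05. Alternatives were other scalings, no filter, DESeq2 1.42.0, limma 3.58.1 (voom), a replicate block and each library left out. The brown depots and the white depots were also each fitted alone, but no pairing of a brown with a white depot was. Leaving out iWAT libraries 1 and 3 was chosen after seeing the data. The test was tried on simulated data. The collagen genes and all lists were chosen with earlier results of these data known, and the list medians and counts carry no test of their own.

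All 12 values are given for a fixed set of 12 collagen genes and, per class and comparison, for up to 4 called genes with the largest difference whose highest depot averaged 5 CPM or more; Col7a1 and Col12a1 were added after their values were seen. Other lists are given by count, with up to 4 members of smallest adjusted p and any member called against the direction of its list. A result that this rule would name among the basement membrane partners is not reported here. Positions and transcript lengths come from GENCODE M21 on GRCm38, and promoter sequences from RefSeq on GRCm38.p6. No libraries of a depot were duplicates: their counts differed by a chi-square of 6.3 to 401 per gene.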

Additional observations from a re-analysis of the deposited data

How the results depend on the processing

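None of the collagen genes called with all 12 libraries changed direction in another setting; Col3a1 and Col6a3, not called between the white depots, were called higher in eWAT without iWAT library 2 and lower without iWAT libraries 1 and 3. In brown against white fat 28 of the 31 calls held in every setting, and the exceptions were Col4a3, Col4a2 and Col17a1; leaving out 1 library gave 7 higher and 24 to 26 lower genes, with Col19a1, and in most fits Col22a1, tested and called in addition. Median differences over all genes were -0.11, -0.09 with DESeq2 size factors and -0.17 with upper quartile scaling. Genes lower in brown fat in all 4 depot pairs numbered 11 without scBAT library 1 and 20 without iWAT library 3, and 22 without iWAT libraries 1 and 3; higher ones numbered 4 to 5. In scBAT against iBAT the count of higher genes was 2 with DESeq2, 5 with iWAT libraries 1 and 3 left out, 1 with the 6 libraries of these depots and 0 to 2 with 1 library left out, against 0. In eWAT against iWAT the higher genes numbered 3 with the 6 libraries of these depots and 7 to 22 with 1 library left out, against 11. The lower ones numbered 5 with limma-voom, 1 with the 6 libraries and 3 to 10 with 1 library left out, against 8. The cause of these shifts was not tested, beyond fewer samples where libraries were left out. Same-numbered libraries of different depots did not deviate together (correlations of -0.18 to 0.23, against -0.27 to 0.34 for different numbers). This cannot show whether they share animals, since the depots are different tissues with few libraries each. The fit with the replicate number as a block gave 11 higher and 6 lower genes in eWAT against iWAT. With 3 libraries per depot small differences can be missed, and in simulated data most were, although no gene with few counts was changed there. The simulation changed 100 genes at each fold among 14710 to 14723. In the data 38.1% of tested genes were lower and 31.3% higher in brown fat. An adjusted p is harder to pass where few genes change, so the recovery in brown against white fat cannot be carried over to the data. In the simulated data, 1.5-fold changes were recovered for 25 of 100 genes in brown against white fat. The same change was recovered for 5 of 100 in scBAT against iBAT and 4 of 100 in eWAT against iWAT. Changes of 4-fold were recovered for 95, 87 and 87 of 100 genes in these comparisons.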
